A study of Danio rerio with 12 samples.

Results

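The fast troponin genes of zebrafish are described here across extraocular muscle (EOM, which turns the eyeball) and trunk muscle, with and without desmin. The 9 members, tnnt3a, tnnt3b, tnni2a.1 to tnni2a.4, tnni2b.1, tnni2b.2 and tnnc2, were chosen by symbol, and their rows were read from a table of 32520 genes. Desmin is the intermediate filament protein that ties the contractile apparatus of a muscle fibre together. The first of 4 groups was mutant EOM, dissected from fish that carried both desma-/- and desmb-/-, and the second was WT EOM. The other groups were mutant trunk and WT trunk, of the same 2 genotypes. All fish were 5 months old and of the AB strain, and the WT fish came from the line in which the mutant had been made. Each group had 3 libraries, 12 in all, made from poly-A selected RNA with a stranded kit. The series text speaks of a desmin knock-down at more than 1 time point, while the sample labels give a double mutant and 1 age only, and the labels were followed. Sample titles number the replicates as groups and do not say whether a library holds 1 fish or several, so a p-value measures only the spread between these samples. The study set out to examine why EOM resists muscular dystrophies.

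Troponin is the calcium switch of the thin filament in striated muscle. Troponin C binds calcium, troponin I holds the actin filament in the off state until calcium arrives, and troponin T anchors the complex to tropomyosin. Vertebrates carry fast skeletal troponin genes apart from those of slow skeletal and cardiac fibres, and zebrafish kept several copies of the fast ones. EOM is known for contractile protein genes that differ from those of limb and trunk muscle.

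The gene name table gives zebrafish rows human-style symbols, and the members appear in it as 2 rows named TNNT3, 6 named TNNI2 and 1 named TNNC2. No table ties a TNNT3 or TNNI2 row to a single zebrafish symbol. Rows are therefore called by symbol and the last 5 digits of the Ensembl gene number, so that TNNI2-05841 is ENSDARG00000005841. The rows TNNI2-45592, TNNI2-05841, TNNI2-13752 and TNNI2-29069 follow each other in the files, with TNNT3-30270 a few rows on, beside MYOD1. RefSeq lists tnni2a.1 to tnni2a.4 as neighbours on chromosome 25, near tnnt3a and myod1. The rows TNNI2-29995 and TNNI2-35958 lie side by side between slc8b1 and lsp1b, with TNNT3-68457 nearby. RefSeq places tnni2b.2 and tnni2b.1 between the same genes on chromosome 7, near tnnt3b. TNNC2 stands between tnnc2.1 and TAF13, where RefSeq places tnnc2.2 on chromosome 23. Reads that map to more than 1 place, 8.28 to 12.51% of the reads of a library, were counted for no gene, so values of single TNNI2 copies are uncertain where copies are nearly identical.

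The libraries held 64.5 to 91.1 M reads on the strand of annotated genes. Levels are given as CPM, reads scaled to a common library total by TMM, which corrects for differences in RNA make-up. Its factors ran between 0.555 and 1.80, so the scale matters and is named where a result turns on it. Gene lengths were not used, so levels are compared between libraries and not between genes. The row DES-58656 averaged 22.8 ± 4.11 CPM in mutant EOM and 864.5 ± 426 CPM in WT EOM (SD, n = 3 each), and 45.4 ± 15 CPM in mutant trunk against 579.4 ± 62.9 CPM in WT trunk. Its log2 fold change was -5.26 in EOM (adjusted p = 8.67e-05) and -3.68 in trunk (adjusted p = 0.0316). Without mutant EOM replicate 1 no gene passed between the EOM genotypes, and with any 1 trunk library but mutant replicate 2 left out, 0 or 1 gene passed between the trunk genotypes. The other desmin row, DES-05221, held 0 to 12 reads in every library and was not tested. Posterior Hox genes, 23 rows that mark trunk position, summed to 0.0157 to 0.309 CPM in mutant EOM and 0.139 to 0.266 CPM in WT EOM, against 87.9 to 127.9 CPM in mutant trunk and 77.1 to 85.2 CPM in WT trunk. The labels name myofibres, but photoreceptor genes (24 rows) summed to 41.8 to 93.0 CPM in mutant EOM and 46.3 to 80.5 CPM in WT EOM. In trunk they stayed at 2.6 to 4.8 CPM in mutants and 3.21 to 3.4 CPM in WT. Erythrocyte genes (6 rows) summed to 439.4 to 1628 CPM in mutant EOM and 1143 to 5002 CPM in WT EOM. Their trunk sums were 318.7 to 845.3 CPM in mutants and 341.1 to 610.2 CPM in WT. Neuron and glia genes (12 rows) summed to 444.7 to 652.6 and 515.9 to 622.0 CPM in EOM of the same genotypes. In trunk they had 203.9 to 341.1 and 218.5 to 421.9 CPM. Cartilage and tendon genes (15 rows) were lower in EOM. The part of such cells was not tested. In tissue RNA, fewer cells of a type and less RNA per cell cannot be told apart.

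The 9 genes split by tissue rather than moving together. In mutants, 3 were higher in EOM than in trunk, 3 were lower and 3 did not pass the test. In WT fish, 4 were higher, 3 lower and 2 did not pass. Among all genes the same test called 6.57% in mutants (3.37% higher and 3.2% lower) and 27.0% in WT (13.1% higher and 13.8% lower). The libraries of the 2 tissues did not overlap for 8 members in each genotype, and for 23.3% of all genes in mutants and 44.9% in WT. Troponin I carried the widest differences, and within the cluster of TNNI2-05841 called copies lay on either side. All 9 kept their sign with library totals alone, a scaling that set the median log2 fold change of all genes at 0.85 in mutants and 0.43 in WT, beside -0.016 and 0.015 with TMM. With it TNNI2-05841 stood at 5.94 in mutants and 5.44 in WT, TNNI2-29069 at -7.13 and -6.07, TNNI2-35958 at 7.22 and 8.89, and TNNC2 at -2.22 and -2.03, in the same order. Every member that passed in a genotype had the same direction of log2 fold change in the other genotype.

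**Figure D1:**
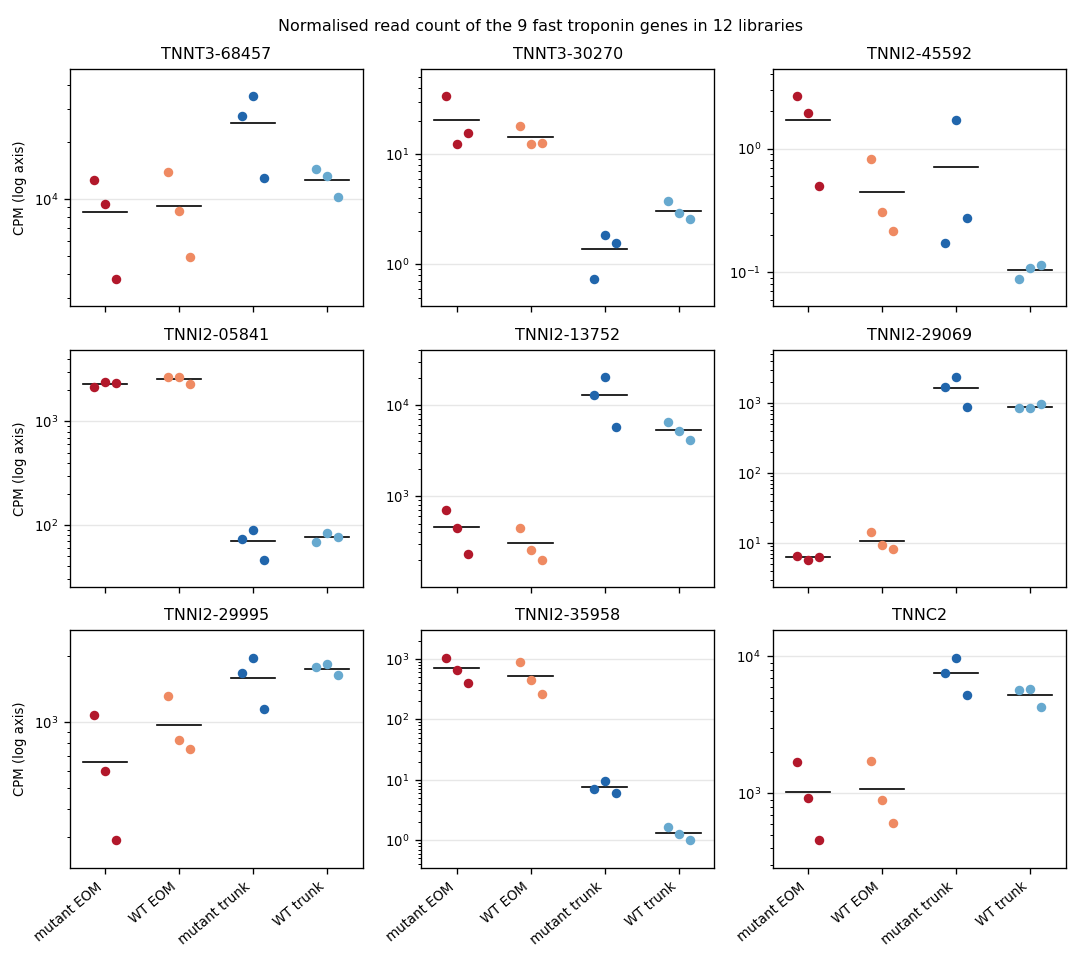
Normalised read count of each fast troponin gene in each library, in CPM on a log axis, by group. Points are libraries in the order of their replicate numbers and bars are group means (n = 3). TNNI2-05841 and TNNI2-35958 lie far higher in EOM, and TNNI2-13752, TNNI2-29069 and TNNC2 higher in trunk.

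Nearly all reads of fast troponin T came from TNNT3-68457, which took 99.7% of the TNNT3 reads in mutant EOM, 99.8% in WT EOM and more than that in trunk. Its libraries gave 12520.3, 9389 and 3772 CPM in mutant EOM and 13849, 8663 and 4911 CPM in WT EOM. In trunk they gave 27574, 34901 and 12930.1 CPM in mutants and 14311, 13218 and 10199 CPM in WT. The mutant tissues did not overlap, with all EOM libraries lower, while the WT tissues did. The log2 fold change of EOM over trunk was -1.67 (SE 0.71, adjusted p = 0.229) in mutants and -0.47 (SE 0.47, adjusted p = 0.496) in WT, so the gene passed in neither. A difference in its level between the muscles was not shown.

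TNNT3-30270, the other fast troponin T row, was low everywhere and higher in EOM. It had 33.5, 12.4 and 15.7 CPM in mutant EOM and 18.1, 12.3 and 12.7 CPM in WT EOM. Trunk libraries had 0.739, 1.85 and 1.57 CPM in mutants and 3.72, 2.90 and 2.57 CPM in WT. No EOM library fell into the range of trunk. The mean was 14.8 times higher in mutant EOM than in mutant trunk (log2 fold change 3.75, SE 0.57, adjusted p = 0.000481) and 4.69 times higher in WT EOM than in WT trunk (2.21, SE 0.25, adjusted p = 0.000216). This row had up to 12.2% of its stranded reads on the opposite strand, but that was 6 reads in mutant trunk replicate 1. In EOM the share was at most 2.89%.

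Of the troponin I genes, TNNI2-05841 was the EOM gene with the most reads. Its libraries held 2144, 2392 and 2354 CPM in mutant EOM and 2686, 2663 and 2309 CPM in WT EOM. Trunk held 72.7, 89.5 and 46.4 CPM in mutants and 69.2, 84.4 and 76.5 CPM in WT. EOM and trunk lay far apart, and the genotypes overlapped within each. The gene was 33.0 times higher in mutant EOM than in mutant trunk (log2 fold change 4.95, SE 0.64, adjusted p = 0.0001) and 33.3 times higher in WT EOM than in WT trunk (5.04, SE 0.36, adjusted p = 1.65e-05). On the CPM scale it was also the steadiest abundant member in EOM, with a coefficient of variation of 5.8% in mutants and 8.27% in WT. Scaled by the plain library total, that coefficient was 43.7% in mutant EOM and 20.5% in WT EOM, so its steadiness belongs to the TMM scale.

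TNNI2-35958, from the other cluster, showed the largest rise of any member in EOM over trunk. Mutant EOM libraries had 1040.3, 659.7 and 400.2 CPM and WT EOM libraries 891.6, 440.5 and 259.2 CPM. Mutant trunk had 6.93, 9.67 and 6.12 CPM, and WT trunk had 1.65, 1.27 and 0.990 CPM. Here the 4 groups formed 3 levels, with the EOM genotypes overlapping, mutant trunk below them and WT trunk lowest. The mean was 92.5 times higher in mutant EOM than in mutant trunk (log2 fold change 6.41, SE 0.65, adjusted p = 1.13e-05) and 406.6 times higher in WT EOM than in WT trunk (8.66, SE 0.60, adjusted p = 1.49e-05).

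TNNI2-13752 and TNNI2-29069, from the same cluster as TNNI2-05841, went the other way. TNNI2-13752 had 702.6, 450.3 and 233.4 CPM in mutant EOM and 451.3, 258.0 and 201.1 CPM in WT EOM. In trunk it had 13025, 20420.4 and 5809 CPM in mutants and 6606, 5218 and 4144 CPM in WT. The tissues did not overlap, and the mean was 28.3 times lower in mutant EOM (log2 fold change -4.96, SE 0.80, adjusted p = 0.000752) and 17.5 times lower in WT EOM (-4.14, SE 0.47, adjusted p = 0.000231). TNNI2-29069 was nearly missing from EOM, with 6.55, 5.77 and 6.26 CPM in mutants and 14.1, 9.27 and 8.29 CPM in WT. It reached 1716, 2349.9 and 867.8 CPM in mutant trunk and 844.1, 836.9 and 976.7 CPM in WT trunk. That was 265.4 times lower in mutant EOM (log2 fold change -8.16, SE 0.75, adjusted p = 5.29e-06) and 84.0 times lower in WT EOM (-6.41, SE 0.38, adjusted p = 7.2e-06). Neighbouring copies of fast troponin I thus lay on opposite sides of the tissue difference.

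TNNI2-29995 had the smallest fold change between the muscles among the abundant troponin I genes. Its libraries gave 1083, 598.2 and 288.2 CPM in mutant EOM and 1325, 833.9 and 752.3 CPM in WT EOM, against 1674, 1970 and 1153 CPM in mutant trunk and 1785, 1848 and 1642 CPM in WT trunk. All EOM libraries lay below all trunk libraries of their genotype, but the log2 fold change of -1.41 in mutants (SE 0.59, adjusted p = 0.224) and -0.87 in WT (SE 0.34, adjusted p = 0.0882) did not pass. The WT difference passed without WT EOM replicate 1 (-1.16, adjusted p = 0.0267) and in DESeq2 (-0.86, adjusted p = 0.0103), and the adjusted p ran between 0.0103 and 0.289 over the alternatives.

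TNNI2-45592 was close to undetected. Its libraries held 69 to 180 reads in mutant EOM and 24 to 65 in WT EOM, against 10 to 71 in mutant trunk and 7 to 10 in WT trunk. The log2 fold change of EOM over trunk was 1.09 in mutants (SE 0.87, adjusted p = 0.629) and 2.06 in WT (SE 0.62, adjusted p = 0.0349). The WT call was lost when any 1 library other than WT EOM replicate 3 was left out, for instance at 1.305 without WT EOM replicate 1 (adjusted p = 0.159). Over all alternatives its adjusted p ran between 0.0121 and 0.167. In mutants, 1 trunk library stood apart at 71 reads, and without that library, replicate 2, the log2 fold change was 2.86 (adjusted p = 0.00532). Up to 38.5% of its stranded reads lay on the opposite strand, but that was 5 reads in WT trunk replicate 2. In EOM the share was at most 1.43%.

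**Figure D2:**
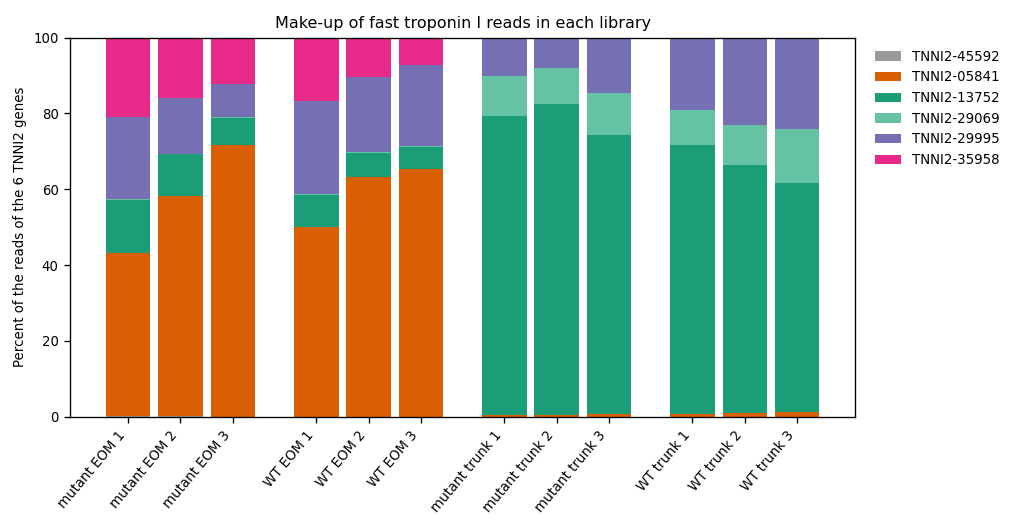
Share of each TNNI2 gene among the reads of the 6 TNNI2 genes, in percent, for each library. TNNI2-05841 takes the largest share in every EOM library and TNNI2-13752 in every trunk library.

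The make-up of troponin I reads is independent of the scaling of libraries, and it differed sharply between the muscles. TNNI2-05841 took 57.7 ± 14.3% of the TNNI2 reads in mutant EOM and 59.6 ± 8.35% in WT EOM (SD, n = 3 each), against 0.463% in mutant trunk and 0.973% in WT trunk. TNNI2-13752 took 10.7% in mutant EOM and 6.75% in WT EOM, against 78.3 ± 4.30% in mutant trunk and 65.6 ± 5.21% in WT trunk. TNNI2-35958 made up 16.4% of the reads in mutant EOM and 11.5% in WT EOM, but 0.0528% in mutant trunk and 0.016% in WT trunk. A 95% Wilson interval of such a share in 1 library was at most 0.42 percentage points wide, which covers counting error only. Shares are of reads, not of molecules, since longer transcripts give more reads.

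Of fast troponin C, the member TNNC2 followed the trunk side, while its neighbour tnnc2.1, described below, did not. TNNC2 had 1688, 932.7 and 453.8 CPM in mutant EOM and 1737, 892.0 and 612.1 CPM in WT EOM, against 7557, 9749 and 5208 CPM in mutant trunk and 5717, 5739 and 4275 CPM in WT trunk. No EOM library reached the trunk range. The mean was 7.32 times lower in mutant EOM than in mutant trunk (log2 fold change -3.00, SE 0.68, adjusted p = 0.0108) and 4.85 times lower in WT EOM than in WT trunk (-2.29, SE 0.47, adjusted p = 0.00594). The mutant call was lost without mutant EOM replicate 1 (adjusted p = 0.058) or replicate 2 (adjusted p = 0.133), and over all alternatives the adjusted p ran between 4.96e-06 and 0.133.

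The adjacent gene tnnc2.1, which is not a member and was named after its values were seen, had the reverse pattern. It averaged 2414 ± 1340 CPM in mutant EOM and 2544 ± 1678 CPM in WT EOM, against 130.0 ± 49.2 CPM in mutant trunk and 100.8 ± 19.2 CPM in WT trunk. The log2 fold change of EOM over trunk was 4.10 in mutants (adjusted p = 0.000937) and 4.64 in WT (adjusted p = 0.000339). Of the reads of both genes, TNNC2 took 29.6% in mutant EOM and 31.1% in WT EOM, against 98.3% in mutant trunk and 98.0% in WT trunk.

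**Figure D3:**
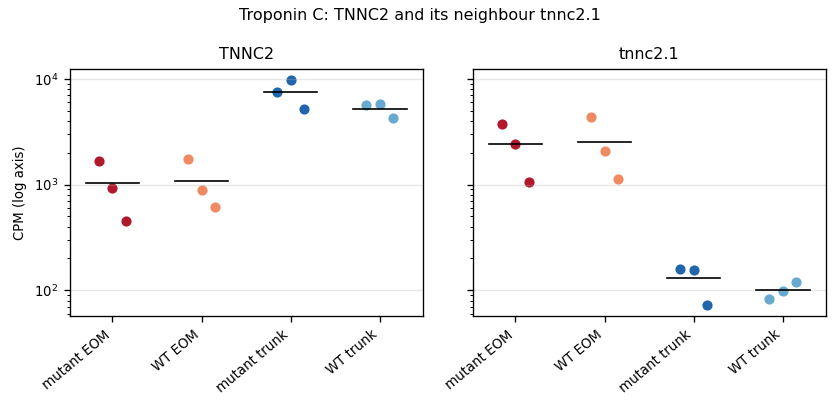
Normalised read count of TNNC2 and of its neighbour tnnc2.1 in each library, in CPM on a log axis, by group. Points are libraries and bars are group means (n = 3). TNNC2 is lower in EOM than in trunk, and tnnc2.1 is higher.

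Together the 9 genes made up 1.496 ± 0.185% of the reads in mutant EOM and 1.75 ± 0.235% in WT EOM, against 3.18 ± 0.735% in mutant trunk and 2.55 ± 0.452% in WT trunk (SD, n = 3 each). Troponin T supplied 0.908%, 1.08%, 1.63% and 1.24% in that order of groups. The sum does not hold tnnc2.1, which was higher in EOM. General skeletal muscle genes, 6 rows that include creatine kinase and titin, summed to 10035 to 23474 CPM in mutant EOM and 13824 to 23605 CPM in WT EOM, against 40849 to 50086 CPM in mutant trunk and 29948 to 40492 CPM in WT trunk. These rows did not share a direction. The creatine kinase row ckma, also a fast fibre partner, averaged 7229 CPM in mutant EOM and 8929 CPM in WT EOM. In trunk it averaged 34257 CPM in mutants and 20881 CPM in WT. The more abundant ACTA1 row went the other way, with 5623 CPM in mutant EOM and 7193 CPM in WT EOM. Its trunk means were 935.9 CPM in mutants and 853.4 CPM in WT. The other ACTA1 row was lower in EOM. The part of general skeletal muscle genes in the tissue differences was not tested.

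**Figure D4:**
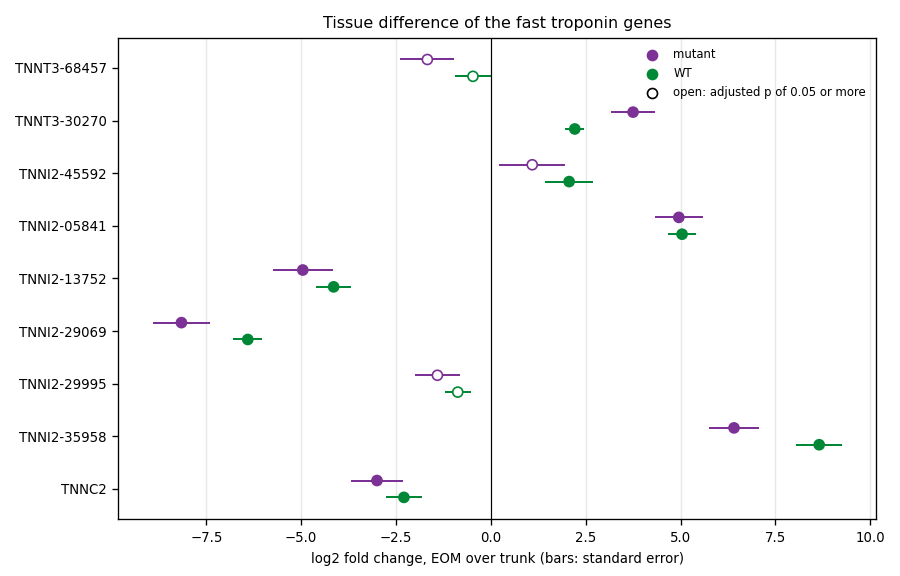
Log2 fold change of EOM over trunk for each fast troponin gene, in mutants and in WT, with bars of 1 standard error derived from the test statistic. Open points did not pass an adjusted p of 0.05. The sign is the same in both genotypes for all 9 genes.

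Between mutant and WT, edgeR fitted on the 6 libraries of a tissue called no fast troponin gene, while other settings called TNNI2-45592 in EOM or TNNI2-35958 in trunk. In EOM, 0 of 9 were called by edgeR and 0 by DESeq2, where edgeR called 0.303% of all genes, and 1 had an unadjusted p under 0.05, as did 5.37% of all genes. TNNT3-68457 had a log2 fold change of mutant over WT of -0.11 (SE 0.72), TNNI2-05841 of -0.16 (SE 0.60) and TNNC2 of -0.09 (SE 0.62), all with an adjusted p of 0.999. Standard errors, derived from the test statistic and its moderated dispersion, ran between 0.42 and 0.72 on the log2 scale over the 9 members. Changes of that order were therefore not detectable by this test, and larger ones could be missed too. TNNI2-45592, at 1.91 (SE 0.65), had an adjusted p of 0.484. The signs of TNNT3-68457 and TNNC2 turned without WT EOM replicate 1, to 0.32 and 0.43.

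In CPM, TNNI2-29069 was the member whose EOM genotypes did not overlap, at 6.20 ± 0.393 CPM in mutants and 10.6 ± 3.11 CPM in WT (log2 fold change -0.77, SE 0.42, adjusted p = 0.966). Among all genes 11.0% did not overlap in CPM. Scaled by the plain library total, TNNI2-29995 and TNNI2-45592 did not overlap either. TNNI2-29995 then had 519.7 to 961.3 reads per M library reads in mutant EOM and 1056 to 1264 in WT EOM. TNNI2-45592 had 0.8957 to 2.352 and 0.3644 to 0.7825 in the same order. No share of all genes without overlap was computed on that scale. TNNI2-45592 averaged 1.70 ± 1.1 CPM in mutant EOM and 0.448 ± 0.328 CPM in WT EOM, a log2 fold change of 1.91 (SE 0.65, unadjusted p = 0.00667, adjusted p = 0.484). Same-numbered EOM libraries deviated together in these data, though no sample title pairs them. When the fit held that number as a block the gene passed at 1.85 (SE 0.49, adjusted p = 0.0106), while genes called over the whole table went up to 582. Its adjusted p ran between 0.0106 and 1.0 over the alternatives. Immune cell markers (17 rows) summed to 597.1 to 1850 CPM in mutant EOM and 427.2 to 612.7 CPM in WT EOM, and in trunk to 364.8 to 514.2 CPM in mutants and 181.5 to 212.8 CPM in WT. Their part in these values was not tested.

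In trunk, 0 of the 8 members tested were called, against 0.0333% of all genes, and 4 had an unadjusted p under 0.05, against 13.1% of all genes. TNNI2-45592 was too low to enter the test, at 0.710 ± 0.847 CPM in mutants and 0.104 ± 0.0139 CPM in WT. Its libraries held 10, 71 and 21 reads in mutant trunk and 7, 8 and 10 reads in WT trunk. The mean was 6.84 times higher in mutants, which rests mostly on the 71 reads of replicate 2. The genotypes did not overlap in CPM but did when scaled by the plain library total, so that separation belongs to the TMM scale. Of the members tested, TNNI2-35958 came closest to the threshold, at 7.57 ± 1.86 CPM in mutants and 1.31 ± 0.332 CPM in WT, or 403 to 473 reads per library against 86 to 131. All mutant trunk libraries lay above all WT trunk libraries, with a log2 fold change of 2.54 (SE 0.33, unadjusted p = 8.81e-05, adjusted p = 0.0626). DESeq2 called it (adjusted p = 3.76e-09), as did edgeR without the expression filter (0.0354), edgeR fitted over all 12 libraries (0.0484) and edgeR without mutant trunk replicate 2 (0.00612). Over all alternatives the adjusted p ran between 3.76e-09 and 0.437. Even in mutant trunk the gene stayed far below its EOM level.

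The other members tested in trunk had smaller log2 fold changes and were not called by edgeR or DESeq2. TNNT3-30270 averaged 1.39 ± 0.578 CPM in mutants and 3.06 ± 0.594 CPM in WT without overlap (log2 fold change -1.14, SE 0.41, adjusted p = 0.336). Among all genes, 26.8% did not overlap between the trunk genotypes. TNNT3-68457 averaged 25135 ± 11186 CPM in mutants and 12576 ± 2130 CPM in WT (1.00, SE 0.42, adjusted p = 0.376), and TNNI2-13752 averaged 13085 ± 7306 CPM and 5323 ± 1235 CPM in the same order (1.303, SE 0.49, adjusted p = 0.342). TNNI2-29069 stood at 0.90 (SE 0.38, adjusted p = 0.380), TNNI2-05841 and TNNI2-29995 had -0.14 each, and TNNC2 had 0.52 (adjusted p = 0.510), or -0.05 with library totals alone. Scaling by library totals alone brought the median of all genes to -0.50 in this comparison. There TNNT3-68457 stood at 0.39 and TNNI2-13752 at 0.66. On that scale the trunk genotypes of TNNI2-05841 and TNNI2-29995 did not overlap, though they did in CPM. The share of all genes without overlap was not computed on that scale. TNNI2-05841 had 42.8 to 49.7 reads per M library reads in mutants and 69.2 to 83.8 in WT. TNNI2-29995 had 1063 to 1093 in mutants and 1581 to 1835 in WT. Over all alternatives their log2 fold changes went down to -0.71 and -0.69, and neither passed (smallest adjusted p 0.338 and 0.323).

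**Figure D5:**
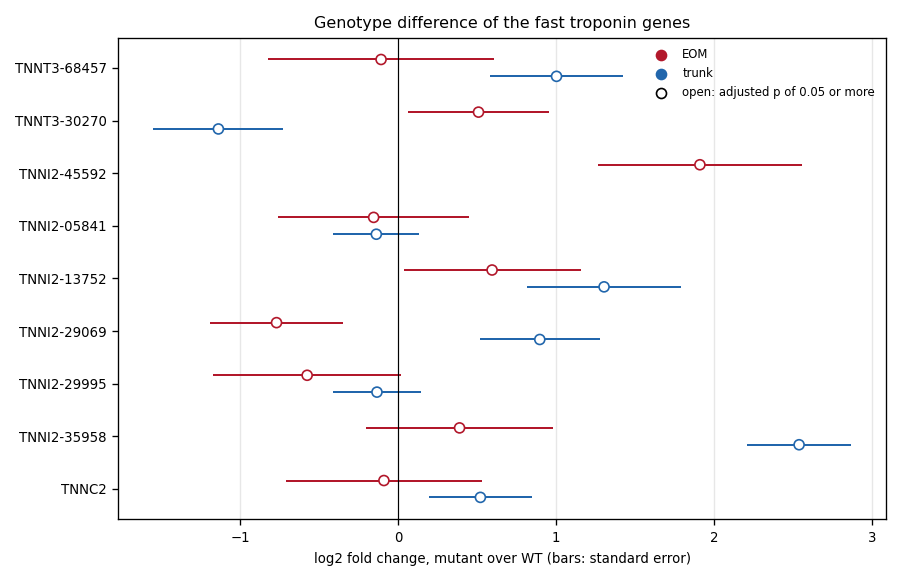
Log2 fold change of mutant over WT for each fast troponin gene in EOM and in trunk, with bars of 1 standard error derived from the test statistic. The values are from edgeR fitted on the 6 libraries of each tissue, in which none passed an adjusted p of 0.05, so all points are open, and TNNI2-45592 has no trunk value because it was too low to be tested.

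Read shares of troponin I, which no scaling touches, were also set between genotypes. TNNI2-13752 took 79.0, 82.2 and 73.7% of the TNNI2 reads in mutant trunk and 71.0, 65.3 and 60.6% in WT trunk. TNNI2-29995 took 10.1, 7.93 and 14.6% in mutant trunk and 19.2, 23.1 and 24.0% in WT trunk. TNNI2-05841 took 0.441, 0.360 and 0.589% in mutant trunk and 0.744, 1.06 and 1.12% in WT trunk. In these 3 and in TNNI2-35958 (means 0.0528% in mutants and 0.016% in WT) the genotypes did not overlap. An exact two-sided permutation test gave p = 0.1 for each, the smallest that 3 against 3 libraries allow. The genotypes overlapped for TNNI2-29069 (exact p = 0.8) and TNNI2-45592 (exact p = 0.3). No share over all genes was computed for such read shares. Shares of 1 family are bound to each other, since a larger share of 1 copy lowers the rest. In EOM all TNNI2 genes but TNNI2-29069 overlapped between genotypes, with TNNI2-29995 at 15.03 ± 6.50% in mutants and 21.9 ± 2.49% in WT (exact p = 0.3). TNNI2-29069 did not overlap there, at 0.154% in mutants and 0.239% in WT (exact p = 0.1). With same-numbered EOM libraries read as pairs, a reading added after seeing the data, TNNI2-13752 was higher in the mutant and TNNI2-29995 lower in 3 of 3 pairs, the directions seen in trunk. TNNI2-35958 and TNNI2-45592 were also higher and TNNI2-29069 lower in 3 of 3 pairs. An exact two-sided paired permutation test gave p = 0.25 for each of these 5 genes, the smallest that 3 pairs allow, and p = 0.75 for TNNI2-05841.

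A test of the difference between the genotype effects, EOM minus trunk, called 0 of 9 members by edgeR and 0 by DESeq2, where edgeR called 0.00998% of all genes. An unadjusted p under 0.05 was reached by 3 members, against 4.43% of all genes. These were TNNI2-35958 at -2.13 (SE 0.67), TNNI2-29069 at -1.66 (SE 0.56) and TNNT3-30270 at 1.66 (SE 0.59), each with an adjusted p of 0.934. TNNI2-05841 had the value nearest to 0, at -0.01 (SE 0.51).

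Other genes of the contractile apparatus were read from lists. For comparison, the tissue test called 3.37% of all genes higher and 3.2% lower in mutants. In WT it called 13.1% higher and 13.8% lower. Slow and cardiac troponins (15 rows) had 3 members higher and 5 lower in EOM among 14 tested in mutants, and 5 higher and 5 lower among 13 tested in WT. TNNI1-00474, of slow troponin I, averaged 95.4 CPM in mutant EOM and 157.0 CPM in WT EOM, against 0.0287 CPM in mutant trunk and 0.0450 CPM in WT trunk. The troponin T gene tnnt2d ran the other way, with 0.232 CPM in mutant EOM and 0.442 CPM in WT EOM, against 289.0 CPM in mutant trunk and 268.7 CPM in WT trunk. No slow or cardiac troponin passed in either genotype comparison. The median log2 fold change of this list in WT was 0.33, and that of the 9 fast troponins -0.47, beside 0.015 over all genes. In mutants the medians were -1.13, -1.41 and -0.016 in the same order.

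Thin filament partners (29 rows: actins, tropomyosins and their capping proteins) had 4 higher and 5 lower in EOM among 28 tested in mutants. In WT 7 were higher and 10 lower among 28 tested. Tropomyosin, the strand to which troponin T binds, split between genes as troponin I did. The gene tpm1 averaged 6359 CPM in mutant EOM and 7688 CPM in WT EOM, against 158.8 CPM in mutant trunk and 137.3 CPM in WT trunk (log2 fold change 5.21 in mutants and 5.80 in WT, adjusted p = 0.00036 and 0.000176). The gene tpma averaged 451.6 CPM in mutant EOM and 552.6 CPM in WT EOM, against 36610.0 CPM in mutant trunk and 16653 CPM in WT trunk (-6.45 in mutants, adjusted p = 0.000245). TMOD4, which caps the pointed end of the filament in skeletal muscle, was lower in EOM, by -3.76 in mutants (adjusted p = 0.00104) and -2.83 in WT (adjusted p = 0.000344).

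Fast fibre partners (36 rows, all tested: myosins, myosin-binding proteins, parvalbumins and calcium handling genes) had 4 higher and 14 lower in EOM in mutants, and 10 higher and 15 lower in WT. The myosin-binding protein gene mybpc2b fell to 9.59 CPM in mutant EOM, against 2826 CPM in mutant trunk, and to 18.5 CPM in WT EOM, against 4068 CPM in WT trunk. The parvalbumin pvalb1, a calcium buffer of fast fibres, had 86.4 CPM in mutant EOM and 20080.4 CPM in mutant trunk (log2 fold change -7.99, adjusted p = 0.000114). The myosin heavy chain myhz2 had 2249 CPM in mutant EOM and 61.0 CPM in mutant trunk (5.10, adjusted p = 0.0001). The heavy chain myhb was the 1 gene of these lists called between genotypes, at 35.5 CPM in mutant trunk and 1.09 CPM in WT trunk (log2 fold change 5.03, adjusted p = 0.0316).

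Fibre type regulators (35 rows, all tested) had 4 higher and 4 lower in EOM in mutants, and 7 higher and 17 lower in WT. Among all genes in WT, 13.1% were higher and 13.8% lower. The homeobox gene lbx2 averaged 24.4 CPM in mutant EOM and 28.5 CPM in WT EOM, against 0.875 CPM in mutant trunk and 0.886 CPM in WT trunk (adjusted p = 1.91e-05 in mutants and 6.36e-06 in WT). In mutant trunk MYOD1 averaged 34.1 CPM and MYOG 30.2 CPM, against 13.4 and 11.98 CPM in WT trunk, and neither was called (adjusted p = 0.217 and 0.264).

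Likeness to other genes was measured as Pearson's r of log2 CPM over the 12 libraries, among 12799 candidate genes. The libraries share tissue, so a high r mostly restates the tissue split and is given as a description. TNNC2 was most like pvalb3 (r = 0.992), TMOD4 (0.991) and tpma (0.985). Genes with high likeness to TNNI2-05841 included kcnab1b (0.994) and lingo4b (0.991). TNNI2-13752 was like HSPB2 (0.991), and TNNT3-68457 like pvalb4 (0.972). After the group means were taken out, the deviations of TNNT3-68457 and TNNI2-13752 over the same libraries had r = 0.963, and those of TNNC2 had r = 0.962 with TNNI2-29995 and 0.952 with TNNI2-35958. The deviations of TNNI2-05841 had r = 0.336 with TNNC2, 0.526 with TNNT3-68457 and 0.853 with TNNI2-29069, and those of TNNT3-30270 had r = 0.336 with TNNT3-68457 and -0.143 with TNNI2-05841. Genes outside the family reached a higher r of deviations, such as TXN with TNNT3-68457 (0.993), s100w with TNNI2-13752 (0.993) and jpt1b with TNNC2 (0.997). High values between members were therefore not particular to troponins. All these deviations share the scaling of each library.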

How the data were processed

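For each library the authors deposited raw counts of reads by gene, in the layout of STAR. Per the submitters' processing notes STAR, DESeq2 and build GRCz11 were used, and versions are not given in the sources used here. The deposited count column on the strand of the gene held 96.43 to 97.26% of stranded reads and was used. The 4 summary lines were left out. Each comparison was fitted on the whole table with edgeR 4.0.16 in R 4.3.3 (quasi-likelihood test, TMM, minimum count 10, minimum total 15, robust dispersions, Benjamini-Hochberg over all genes tested, threshold 0.05), without covariates, on the groups compared. The interaction used all 12 libraries. The SE of an edgeR log2 fold change is its absolute value over the square root of the quasi-likelihood F. It thus carries a dispersion moderated over genes and is not the spread of 1 gene between libraries. CPM are on the TMM scale of all 12 libraries. The fit was also run on simulated counts drawn without differences in RNA make-up between libraries, so that run says nothing about the scaling. DESeq2 1.42.0 was an alternative, with other scalings, no filter, unstranded counts, 1 fit of all libraries, a replicate block and leaving out each library.

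No sample title pairs the libraries. Same-numbered EOM libraries deviated together (r = 0.288, 0.246 and 0.552 over genes). Only on that ground, taken from these same data, were their read shares also read as pairs. That reading is a description and does not show a pairing. In the other comparisons at least 1 same-numbered r was at or under 0.1, and shares were not read as pairs. The replicate block was fitted in every comparison, as an alternative setting only.

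Members and lists were chosen with earlier results of these data known. Named besides the members were, from each list and comparison, up to 3 genes of smallest adjusted p, or the 2 of smallest p where none passed, and the 3 genes most like a member by r. Not all genes that qualify are printed, and 1 of them is not reported here. Lists were matched by symbol or by human family symbol. RefSeq annotation of another assembly, GRCz12tu, served only for neighbours, and no coordinates or sequences are given.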

Additional observations from a re-analysis of the deposited data

How the results depend on the processing

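Of the members' log2 fold changes outside the leave-one-out fits, 284 kept direction and side of the threshold, 7 newly passed, 2 no longer passed and 6 turned. The turned ones were TNNC2 between trunk genotypes (-0.047 with library totals alone) and the TNNI2-05841 interaction, at 0.008 with DESeq2 size factors and in DESeq2, 0.502 with library totals, 0.025 without a filter and 0.036 with the replicate block. The cause was not tested. Members called between EOM genotypes went to 1 with the block, and between trunk genotypes to 1 in DESeq2, 1 without a filter and 1 with 1 fit of all libraries. Genes called between EOM genotypes, 57 as reported, were 2 with library totals, 139 in DESeq2, 120 without a filter, 582 with the replicate block and 34 with 1 fit. Between trunk genotypes, 6 became 3, 606, 52, 0 and 52 in the same order, and 14 with unstranded counts. The mutant tissue difference, 1186 genes, gave 1827 in DESeq2 and 2313 with 1 fit, and the WT one, 5116 genes, gave 1968 with 1 fit. The interaction, 2 genes, gave 0 with library totals, 14 in DESeq2 and 1 with unstranded counts.

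With the replicate block in the mutant tissue difference, TNNT3-68457 (-1.69, adjusted p = 0.0151) and TNNI2-29995 (-1.54, adjusted p = 0.0315) passed, and in the WT one TNNI2-45592 did not (adjusted p = 0.0816). Besides TNNI2-45592 between EOM genotypes, given above, the block changed no other member's call. The replicate numbers are not shown to be pairs.

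Leaving out 1 library, genes called ranged from 0 to 78 between EOM genotypes (0 without mutant EOM replicate 1, 37 without replicate 2) and from 0 to 251 between trunk genotypes (251 without mutant trunk replicate 2). They ranged from 515 to 1644 in the mutant tissue difference (515 without mutant EOM replicate 1, 599 without replicate 2), from 3103 to 7732 in the WT one (3103 without WT trunk replicate 2, 7732 without WT EOM replicate 3) and from 1 to 3 in the interaction. Members called ranged from 0 to 1 between trunk genotypes. Between EOM genotypes the log2 fold change ranged from -0.023 to 0.771 for TNNT3-30270, -0.478 to 0.315 for TNNT3-68457, -0.002 to 0.983 for TNNI2-35958 and -0.642 to 0.429 for TNNC2. Between trunk genotypes it ranged from -0.378 to 0.075 for TNNI2-05841 and -0.328 to 0.045 for TNNI2-29995. In the interaction it ranged from -1.295 to 0.827 for TNNI2-45592 and -0.236 to 0.207 for TNNI2-05841. Depth limits TNNI2-45592, with 7 reads in its lowest library.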
